A study of Mus musculus with 56 samples.

Results

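The libraries described here are 14 of 56, the total RNA libraries of gastrocnemius muscle from mice labelled as HuR knockouts, divided by their own level of Mss51. The level is in CPM, the read count scaled to the same total of reads assigned to genes in every library. A library under 260 CPM was put in a weak class and a library at or over that level in a strong class. The weak class held 5 libraries (3 female, 2 male) and the strong class 9 (4 female, 5 male). Because the classes were chosen by measured values, differences between them in total RNA are given as a description with no test.

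The series compared muscle with and without HuR, the RNA-binding protein encoded by Elavl1. All mice were 20 to 22 weeks old and carried a GFP-tagged L10A ribosomal protein switched on by Cre recombinase, which the Mlc1f promoter drives in muscle fibres. The labelled knockouts carried a floxed Elavl1 gene as well, and the 14 controls did not. Each mouse number has a total library, from RNA of the whole homogenate, and a ribosomal library, from RNA held on isolated tagged ribosomes, so total RNA also holds RNA of cells in which this promoter does not drive Cre. The groups compared here were the weak and strong classes, 7 female and 7 male controls in total RNA, and the 28 ribosomal libraries of the same-numbered mice.

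HuR binds AU-rich stretches in mRNA, mostly in untranslated regions, and is known for changing the stability and translation of its targets. Mss51 encodes a mitochondrial protein of skeletal muscle whose yeast namesake helps make a subunit of cytochrome oxidase, and in mouse muscle it is known as a gene that responds to myostatin and related ligands. Gastrocnemius is built mainly of fast fibres with a smaller slow part, and slow fibres express their own isoforms of myosin and troponin.

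Mss51 (ENSMUSG00000021815) set the classes, and its values are given to show how they lie. In females the weak libraries held 123, 134 and 164 CPM and the strong libraries 319, 356, 490 and 545. In males the 2 weak libraries held 211 CPM each and the strong libraries 402, 447, 495, 523 and 534. Female controls ranged from 48.6 to 131 CPM (median 87.2) and male controls from 154 to 299 (median 226). The strong libraries stood above every control of their sex, the weak males stood within the range of male controls, and 2 of the 3 weak females stood just above the highest female control. The members nearest the threshold were the weak males at 211 CPM and strong female 9 at 319. The threshold was the same for both sexes although male controls held more Mss51 than female controls, and 2 of the 7 male controls were themselves above 260 CPM. Relative to controls, Mss51 was 0.31 higher in the weak class and 1.61 higher in the strong class on the log2 scale.

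**Figure D1:**
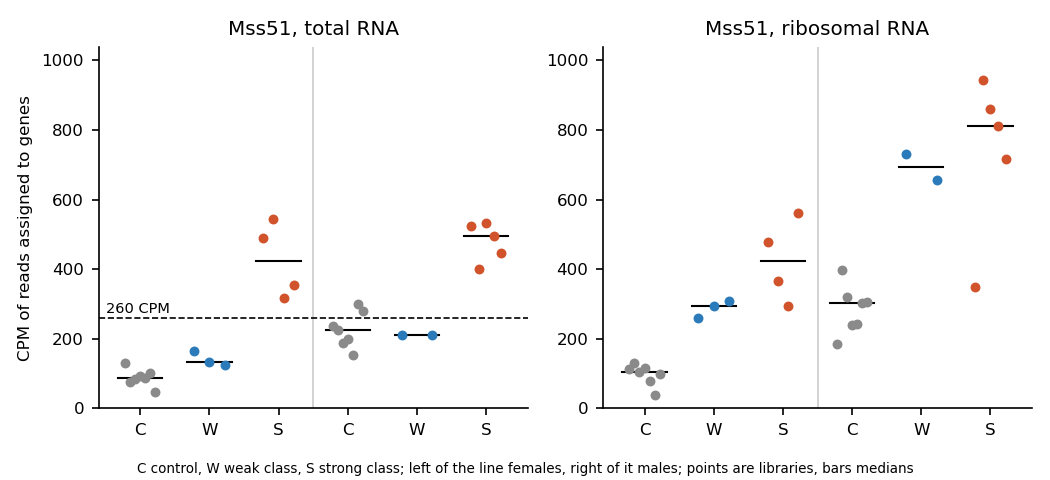
Mss51 in CPM in each total library (left) and each ribosomal library (right), by sex and class, with bars at medians and the 260 CPM threshold dashed. In total RNA the strong class lies above 318 CPM and the weak class below 211, while in ribosomal RNA both classes lie above the controls of their sex in females and overlap one another in both sexes.

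Elavl1 (ENSMUSG00000040028), the targeted gene, did not separate the classes. Weak libraries held 86.3, 85.1 and 67.6 CPM in females and 80.6 and 81.3 in males. Strong libraries held 74.2, 95, 95.5 and 96.9 CPM in females and 57.3, 86.8, 98.9, 88.3 and 82.4 in males. Controls ranged from 62.4 to 105 CPM (median 82.6) in females and from 73.3 to 116 (median 84.4) in males, so all 3 groups overlapped. These tags sit at the 3′ end of transcripts, and the deleted exons are not given in the sources used here, so this level may check nothing about the deletion. The mice are therefore called labelled knockouts.

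Total libraries of the weak class held 2.63 to 3.72 M counts and those of the strong class 2.97 to 5.85 M. Reads outside annotated genes made up 9.54 to 13.5% of counted reads in the weak class, 10.1 to 21.6% in the strong class and 12.4 to 23.4% in controls. Strong female 9 was the highest labelled knockout by that measure. Strong male 6 carried kidney transcripts, whose 15 listed genes summed to 1480 CPM there, and the ribosomal library of weak male 1 held 320 CPM of them. Long non-coding genes took 1.41 to 1.67% of assigned reads in the weak class, 1.79 to 2.43% in the strong class and 1.80 to 2.21% in controls. Mitochondrially encoded mRNA took 4.62 to 5.75% in the weak class, 2.44 to 4.39% in the strong class and 3.14 to 3.80% in controls. The weak libraries were thus below every control in long non-coding reads and above every control in mitochondrial reads, while the strong libraries overlapped the controls in both. These shares move with the classes, and their part in the gene differences below was not tested.

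A gene was said to follow the split when it had a mean of at least 5 CPM over the 14 libraries, a log2 difference of at least 1 in size, and no overlap of weak and strong libraries in either sex. Of 10911 genes at that level, 193 followed (1.77%), 173 higher in the strong class and 20 higher in the weak class. Without the size limit, 995 of 12856 genes measured did not overlap (7.74%). The libraries were chosen on Mss51 itself, and nothing is read from these shares. Protein-coding genes were 10322 of the 10911 (94.6%) and supplied 58 of the 173 (33.5%) and 16 of the 20. Long non-coding genes were 407 of the 10911 (3.73%) and supplied 76 of the 173 (43.9%) and 3 of the 20. Genes of other or unmatched types were 182 of the 10911 (1.67%) and supplied the remaining 39 (22.5%) and 1. Leaving out strong female 9 gave 194 genes, while a threshold of 320 CPM, which moves that library to the weak class, gave 42. Leaving out strong male 6 gave 200, and leaving out a library can only ease the condition of no overlap.

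Among coding genes higher in the strong class, Tppp2, a relative of the tubulin polymerization promoting protein, had the largest difference. Its level was 1.61, 2.73 and 2.28 CPM in weak females and 17.3, 23.5, 23.6 and 27.1 in strong females. In males it was 0.761 and 2.04 CPM in the weak class and 9.42, 10.1, 10.5, 16 and 27.4 in the strong class. Controls ranged from 2.20 to 4.97 CPM in females and from 3.32 to 6.18 in males. Every strong library lay above every control, and every weak library lay below the median control of its sex. The log2 differences were 2.18 for strong minus control, −1.05 for weak minus control and 3.31 (standard error 0.32) for strong minus weak. Weak libraries held 2.63 to 3.72 M counts, so levels of a few CPM, here and below, rest on few reads.

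Atoh7, a basic helix-loop-helix transcription factor gene best known from the retina, differed in a simpler way. Weak libraries held 0.380, 1.82 and 1.88 CPM in females and 0.761 and 3.40 in males. Strong libraries held 6.64, 10.5, 13.7 and 14.6 CPM in females and 4, 13.9, 17, 17.2 and 22.6 in males. The weak libraries lay in and on both sides of the control range, which was 0.653 to 2.66 CPM in females and 1.21 to 2.88 in males, and every strong library lay above it. The weak class was 0.01 and the strong class 2.82 above controls on the log2 scale.

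Metrn, which encodes the secreted neurotrophic factor meteorin, showed the same arrangement at higher counts. Its weak libraries held 35.9, 37.6 and 38 CPM in females and 32.3 and 36.8 in males, beside control medians of 31.3 and 33.2. Its strong libraries held 69.8 to 88.1 CPM in females and 61.7 to 109 in males, giving a log2 difference of 1.17 (standard error 0.13). Hspb3, a small heat shock protein gene of muscle, held 68.5 to 79.9 CPM in weak females and 137 to 183 in strong females, and 52.1 and 69.4 CPM in weak males against 126 to 204 in strong males. The weak class stood near the controls for both genes. Metrn, Hspb3, Prkab2, Fkbp5, H19, Snhg3 and Snhg9 are named outside the rule for named genes and were chosen after their values were seen.

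Further coding genes that followed the split lay in several ways about the controls. Gdf11, a ligand related to myostatin, was the member of a list of 22 myostatin and TGF-beta genes that followed the split. It held 13.7, 16.7 and 18.2 CPM in weak females and 31.2, 33.8, 35.1 and 46.8 in strong females. Male levels were 18.4 and 18.6 CPM in the weak class and 56.8, 98, 103, 111 and 126 in the strong class, with controls at 16.1 to 27.1 in females and 36.2 to 63 in males. Mstn itself, myostatin, differed by −0.27 and did not follow. Cyp4f39, a cytochrome P450 gene, was 2.82 higher in the strong class, with weak libraries at 1.52 to 3.42 CPM and strong libraries at 12.1 to 30.4. Col24a1, a fibrillar collagen gene, was 2.44 higher, with 5.37 to 13.1 CPM in the weak class and 23.6 to 104 in the strong class, and strong female 9 was the highest. Igfn1, which encodes a protein of the muscle Z-disc, was 2.31 below controls in the weak class and 0.31 below them in the strong class.

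The remaining genes with the largest differences were Kcne1l (2.17), a potassium channel subunit gene, Ccdc73 (2.06), Rpl10a (2.05) and Tmem116, which held 1.02 to 2.42 CPM in the weak class and 4.10 to 10.6 in the strong class. Rpl10a encodes the L10A protein that is tagged in all these mice, it has near-identical copies in the genome, and the handling of reads that fit several copies or the transgene is uncertain. Its 1.07 to 2.72 CPM in the weak class and 3.93 to 13.3 CPM in the strong class are therefore uncertain as well.

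Long non-coding genes formed the largest set. H19, an imprinted non-coding RNA of muscle and embryo, held 572, 586 and 748 CPM in weak females and 989, 1231, 1282 and 1394 in strong females. In males it held 230 and 251 CPM in the weak class and 726, 782, 808, 816 and 927 in the strong class. Controls held 585 to 841 CPM in females and 280 to 409 in males, so the strong class lay above all controls, and both weak males lay below all male controls.

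Snhg3, a host gene of small nucleolar RNAs, differed instead through the weak class. It held 89.8, 96 and 105 CPM in weak females and 106 and 124 in weak males, below every control of their sex. Its strong libraries held 236 to 361 CPM in females and 252 to 376 in males, beside control ranges of 180 to 315 and 136 to 272. The weak class was 1.18 below controls and the strong class 0.32 above them. The same arrangement held for Snhg10, at 1.90 to 5.10 CPM in the weak class, 13 to 24 in the strong class and 13.8 to 26 in controls, and for Rab26os, at 10.2 to 18.2 CPM, 41.7 to 91.1 and 38.3 to 68. Snhg9, another host gene, was 0.98 below controls in the weak class and 0.32 above them in the strong class. Rab26os, Atcayos and Mecomos, another of the 12 largest (1.85), are annotated opposite a coding gene, and the strand setting of the counting is not given in the sources used here, so reads of the partner gene cannot be told apart. Over all 407 long non-coding genes the median difference between classes was 0.36, with a median of −0.26 for weak minus control and 0.09 for strong minus control. Over all 10911 genes these medians were 0.00395, 6.18e-05 and 0.000552.

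Slow fibre genes moved together. Of 12 measured in a list of 13, 10 did not overlap between the classes (83.3%, beside 7.74% of all genes), all higher in the strong class. The split was followed by 5 (Myh7, Tnnt1, Tnni1, Tnnc1 and Sln), beside 1.77% of all genes at 5 CPM or more. Tnnt1, the slow skeletal troponin T, held 251, 315 and 330 CPM in weak females and 536, 578, 580 and 674 in strong females. The male libraries held 108 and 159 CPM in the weak class and 295, 299, 334, 346 and 445 in the strong class. Controls held 335 to 458 CPM in females and 180 to 295 in males, so the weak libraries lay below all controls of their sex, and the strong libraries above the highest of them.

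Myh7, the slow myosin heavy chain, held 76.7, 78.1 and 99.2 CPM in weak females against 150 to 228 in strong females, and 28.2 and 44.9 in weak males against 72.8 to 105 in strong males. Sln, which encodes the calcium pump regulator sarcolipin, was 1.42 higher in the strong class and 0.68 below controls in the weak class. The 13 slow fibre genes summed to 2695 to 3168 CPM in weak females, 2800 to 3818 in female controls and 4371 to 5025 in strong females. In males the sums were 1582 to 1954, 1982 to 2657 and 2750 to 3291 CPM. The list's median was 0.81 for strong minus weak, and 14 fast fibre genes had a median of −0.21. In whole-muscle RNA, fewer slow fibres and less slow fibre RNA per fibre cannot be told apart.

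Dach2, a transcriptional cofactor gene of the denervation response, was among the 20 genes higher in the weak class. It held 18.5, 20.5 and 21 CPM in weak females and 4.43, 6.15, 6.87 and 8.07 in strong females. Male libraries held 14.6 and 27 CPM in the weak class and 3.38, 6.07, 6.16, 6.28 and 7.32 in the strong class. The weak class shared the control range, 13.3 to 29.2 CPM in females and 10 to 28.5 in males, and the strong class lay below it.

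Fhl3, a LIM-domain protein gene of muscle, was placed alike. It held 106, 114 and 123 CPM in weak females, 163 and 165 in weak males, and 41.4 to 65 and 65.7 to 92 in the strong libraries, beside controls at 102 to 170 and 160 to 225. Maob, which encodes monoamine oxidase B, held 61.5, 71.4 and 73.6 CPM in weak females and 50 and 55.5 in weak males. Its strong libraries held 18.2 to 39 CPM in females and 23 to 32.4 in males, below all controls, which held 68.8 to 95.3 and 53.5 to 77.1. The weak class lay within the control range for Fhl3 and from just below it to within it for Maob.

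Ostn, the gene of the secreted muscle peptide musclin, lay to both sides of the control median in females. It held 172, 223 and 245 CPM in weak females and 22.8, 54.1, 56.5 and 58.4 in strong females, with controls at 78.7 to 178 (median 127). In males it held 59.3 and 133 CPM in the weak class and 31.8 to 55.6 in the strong class. Male controls, at 37.8 to 72 (median 52), overlapped both classes. Gdap1, a gene of the mitochondrial outer membrane, was 1.71 higher in the weak class, at 39.1 to 48.6 CPM in females and 66.7 and 74.9 in males, against 11.6 to 22.2 and 13.7 to 22.6 in the strong class. Prkab2, a beta subunit gene of AMP-activated kinase, held 434 to 475 CPM in weak females against 188 to 256 in strong females, and 444 and 505 in weak males against 209 to 285 in strong males. Six2, a homeobox gene, differed through the weak class, which was 1.61 above controls while the strong class was 0.06 below them. The other named genes higher in the weak class were Slc15a5 (−2.12 for strong minus weak), Ccdc122 (−1.86), Agbl1 (−1.40), Actr3b (−1.24) and Rnf212b (−1.10).

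**Figure D2:**
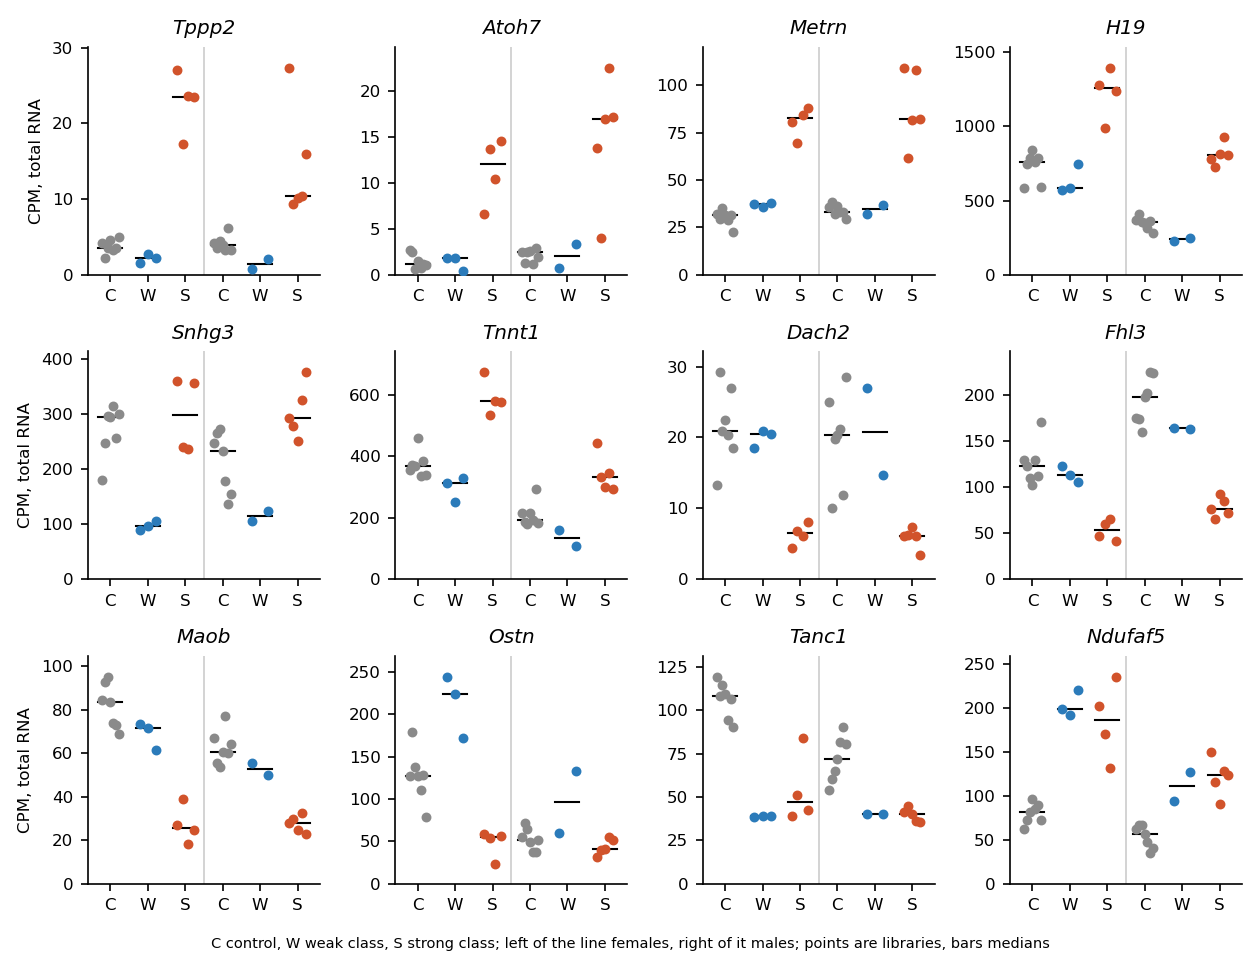
CPM of 12 genes in every total library, by sex and class, each panel on its own linear axis from 0, with bars at medians. Tppp2, Atoh7, Metrn, H19, Snhg3 and Tnnt1 are higher in the strong class, Dach2, Fhl3, Maob and Ostn are higher in the weak class, and Tanc1 and Ndufaf5 differ from controls in both classes.

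Set beside the 14 controls, the 193 genes fell into 3 arrangements at a margin of 0.5 on the log2 scale. Of the 173 higher in the strong class, 56 had the strong class beyond the margin and the weak class within it, as Atoh7 and Metrn did. Another 35 had the weak class beyond the margin and the strong class within it, as Snhg10 and Igfn1 did, 78 had the classes beyond it on opposite sides, as Tppp2 and Gdf11 did, and 4 were placed otherwise. The medians of the 173 genes were −0.73 for weak minus control and 0.83 for strong minus control. Of the 20 higher in the weak class the counts in the same order were 11, 4, 5 and 0, with medians of 0.45 and −0.80. Both differences share the controls and the choice of libraries, so the arrangement is a description. Over all genes fitted, 124 were at least 1 log2 unit higher and 44 lower than controls in the strong class, and 59 were higher and 126 lower in the weak class, of 10838.

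**Figure D3:**
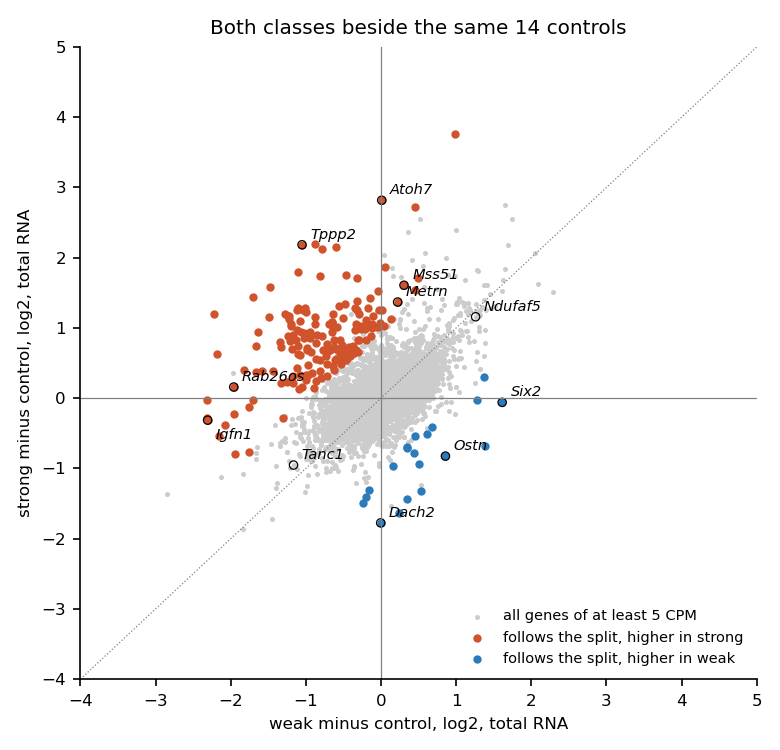
Log2 difference from controls in the weak class (horizontal) and the strong class (vertical) for each gene of at least 5 CPM in total RNA, with the diagonal dotted. Genes that follow the split lie away from the diagonal on both sides of the axes, and Tanc1 and Ndufaf5 lie near it. Both axes share the same 14 controls.

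Whether the classes differ in how far they carry the labelled knockout's change was described with genes called in ribosomal libraries. The threshold did not use those calls, but it used the total libraries in which the genes are described here, and Mss51, whose total level set the classes, is itself one of the genes. In ribosomal RNA 1841 of 9098 genes differed between labelled knockouts and controls (20.2%, edgeR's quasi-likelihood test, Benjamini-Hochberg adjusted p under 0.05), 890 higher and 951 lower. Of these, 130 were higher and 136 lower in each sex (2.92% of genes). In total RNA all 14 labelled knockouts against the controls gave 3198 of 12860 genes (24.9%). Mss51 was 1.70 higher in ribosomal RNA (adjusted p = 1.58e-13, edgeR).

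Of the genes higher in ribosomal RNA of both sexes, 121, Mss51 included, were measured at 5 CPM or more in total RNA. Their median was 0.05 above controls in the weak class and 0.81 above in the strong class. Every strong library of both sexes was above every control of its sex for 52 of the 121, and every weak library for 11. Over all 10911 genes, every library of a class was beyond all controls of its sex for 2.36% in the strong class and 5.55% in the weak class. These shares are not split by direction. The shares of the classes cannot be compared with each other because they hold 9 and 5 libraries. Of the 121, 36 followed the split (29.8%), all with the strong class higher. Of all 10911 genes 1.77% followed, 173 higher in the strong class and 20 higher in the weak class. Among the 36 were Atoh7, Tppp2, Metrn, H19, Hspb3, Gdf11, Tnnc1 and Atcayos. Without Mss51, 35 of 120 followed (29.2%), every strong library was above every control for 51 and every weak library for 11, and the medians were 0.05 and 0.81. The rule that chose the libraries used this contrast, so these counts are a description.

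Of the genes lower in ribosomal RNA of both sexes, 131 were measured. Their median was −0.21 for weak minus control and −0.54 for strong minus control. Every library was below every control of its sex for 33 in the weak class and 43 in the strong class. Over all 10911 genes, 5.55% were beyond the controls in the weak class and 2.36% in the strong class, shares not split by direction. The classes hold 5 and 9 libraries, so the 33 and 43 cannot be compared with each other. Of the 131, 7 followed the split (5.34%, beside 1.77% of all genes). Among them Dach2, Fhl3, Maob and Me3, a malic enzyme gene, were lower in the strong class, and Cpne2, a copine gene, and Ddc, the aromatic amino acid decarboxylase gene, were lower in the weak class. Cpne2 and Ddc are named because the count is small and were chosen after their values were seen, as was Me3.

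Some genes of the labelled knockout differed from controls in the same direction in both classes. Tanc1, a scaffold protein gene that was 1.93 lower in ribosomal RNA of labelled knockouts (adjusted p = 1.30e-13, edgeR), held 38.2, 38.7 and 39.2 CPM in weak females and 38.7, 42.6, 51.1 and 83.7 in strong females. The male levels were 39.9 and 40.2 CPM in the weak class and 35.3 to 44.5 in the strong class. Controls held 90.1 to 119 CPM in females and 54.2 to 90.2 in males, and all labelled knockouts of both classes were below them.

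Ndufaf5, a complex I assembly factor gene, held 193, 199 and 221 CPM in weak females and 131, 171, 203 and 236 in strong females, above female controls at 61.8 to 97. In males it held 94.7 and 127 CPM in the weak class and 90.4 to 150 in the strong class, above male controls at 35.4 to 67.4. Gamt, which makes creatine, held 11.8 to 14.8 CPM in weak females and 11.8 to 30.5 in strong females, and 11 and 15.3 in weak males against 15.6 to 27.7 in strong males, all above the controls' highest of 8.49. Fkbp5, a glucocorticoid-responsive co-chaperone gene, held 18.6 to 26.1 CPM in weak females and 16.6 to 23.3 in strong females, below female controls at 58.1 to 112. In males Fkbp5 held 28.9 and 34.6 CPM in the weak class, below controls at 47.7 to 97.3, and 33.1 to 54.5 in the strong class, which overlapped them. On the log2 scale the weak and strong classes differed from controls by −1.16 and −0.95 for Tanc1, 1.26 and 1.16 for Ndufaf5, 1.12 and 1.68 for Gamt, and −1.39 and −1.21 for Fkbp5.

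Cdkn1a, the cell cycle inhibitor p21, was lowest in the weak class. It held 44.1, 55.5 and 63.2 CPM in weak females and 85, 99.1, 128 and 266 in strong females, with controls at 249 to 477. Male libraries held 30.6 and 51.3 CPM in the weak class and 50.4 to 68.5 in the strong class, with controls at 63 to 173. Tmf1, a Golgi-associated protein gene, went the other way, at 139 to 174 CPM in weak females, 125 and 147 in weak males, and 65.9 to 91.5 over the strong libraries, with controls at 166 to 193.

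A knockout score was computed for each total library from these 121 and 131 genes, as the slope of the library's log2 differences from the controls of its sex on the ribosomal knockout change. A score of 1 means changes as large as in ribosomal RNA. Weak females scored 0.264, 0.270 and 0.285 and weak males 0.0942 and 0.218. Strong females scored 0.682 to 0.764 and strong males 0.621 to 0.741. Controls scored −0.0985 to 0.0739. Every weak library stood above every control and below every strong library. Mss51 is among the 121 genes, and without it the scores were 0.0954 to 0.284 in the weak class, 0.620 to 0.758 in the strong class and −0.0942 to 0.0740 in controls.

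**Figure D4:**
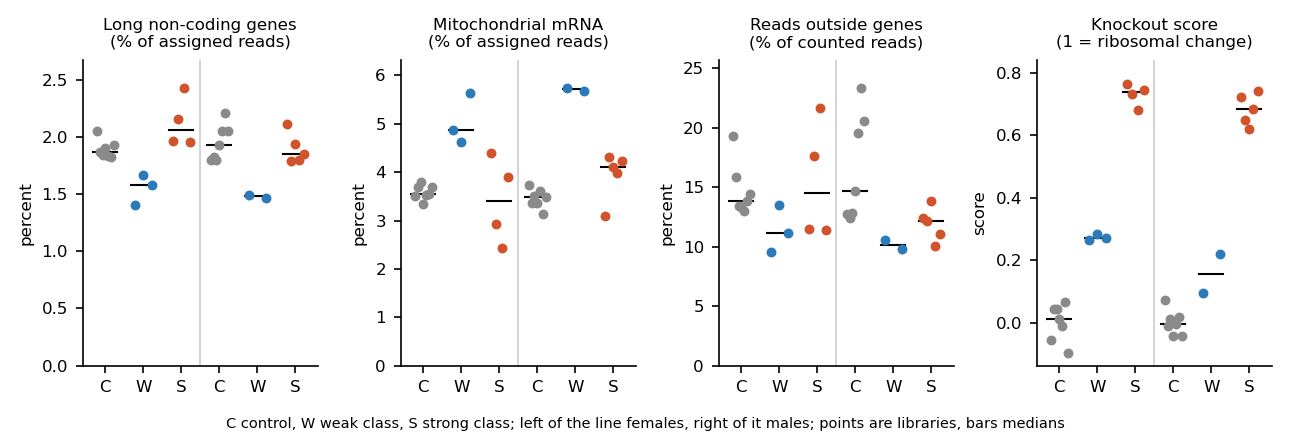
4 measures of each total library by sex and class, with bars at medians: long non-coding reads, mitochondrial mRNA, reads outside genes, and the knockout score. Weak libraries lie lowest in long non-coding reads and highest in mitochondrial mRNA, and their scores of 0.0942 to 0.285 lie between the controls and the strong class.

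Ribosomal libraries of the same-numbered mice were used to test the classes in data that the threshold did not use. The assignment rests on the mouse numbers in the labels. No gene of 8222 passed the test between the ribosomal libraries of weak and strong mice (0% at an adjusted p under 0.05, edgeR's quasi-likelihood test with sex as a covariate). At an unadjusted p under 0.05 there were 555 genes, and DESeq2 called 0 genes with 520 at an unadjusted p under 0.05. The smallest adjusted p was 0.0780. A count of 0 does not show that the ribosomal libraries are alike, and leaving out the shallowest library, male 2 with 0.160 M counts, gave 8 genes. Leaving out weak male 1, which carried kidney transcripts, gave 2.

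Mss51 in ribosomal RNA was high in both classes. Female weak mice held 260, 295 and 309 CPM and female strong mice 296, 367, 479 and 562, above female controls at 37.8 to 130. Male weak mice held 655 and 731 CPM and male strong mice 349, 716, 811, 862 and 944, beside male controls at 184 to 398, with the shallow male 2 as the lowest of the labelled knockouts. The classes overlapped in both sexes. The sex-adjusted difference was 0.20 on the log2 scale (exact permutation within sexes, two-sided, p = 0.310 over 735 arrangements), with 0.35 in females and 0.03 in males, and edgeR gave 0.23 (standard error 0.15, adjusted p = 0.866). On the edgeR scale the strong-minus-weak difference of Mss51 in total RNA was 1.36.

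The genes that followed the split in total RNA were looked up in the ribosomal comparison. Of the 173 higher in the strong class 154 were tested, 144 of them with a value above 0, and their median was 0.33 beside −0.001 for all 8222 genes, of which 4084 were above 0. None was called, and 34 had an unadjusted p under 0.05. Of the 20 higher in the weak class 14 were tested, 1 with a value above 0, and their median was −0.36. Total and ribosomal libraries of a mouse share the animal, so these are not independent of the selection of mice. Atoh7 had a ribosomal difference of 1.23 (adjusted p = 0.277), Maob −0.72 (adjusted p = 0.477) and Tppp2 0.36 (adjusted p = 0.808, all edgeR).

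Tppp2 and Tnnt1, which split in total RNA, were also set beside the controls in ribosomal RNA. Tppp2 held 13.2, 19.4 and 28.5 CPM in weak females and 27.9 to 34 in strong females, beside controls at 2.37 to 9.64. In males it held 13.1 and 20.6 CPM in the weak class and 6.24 to 23.7 in the strong class. The 6.24 CPM was in the shallow male 2 (0.160 M counts), where it rests on few reads. Male controls held 2.60 to 6.68 CPM, so every weak library lay above the controls of its sex. Tnnt1 held 871 to 1602 CPM in weak females and 855 to 1602 in strong females, beside controls at 572 to 960. In males Tnnt1 held 546 and 638 CPM in the weak class and 368 to 771 in the strong class, beside controls at 329 to 539. Its ribosomal difference was −0.08 (adjusted p = 0.999, edgeR). Of the 12 slow fibre genes tested in ribosomal RNA, 8 were higher in labelled knockouts, and the list's median between classes was −0.04. Of the 121 genes higher in labelled knockouts, 120 were tested between classes in ribosomal RNA, with a median of 0.18. The median of the 121 in total RNA was 0.59. Without Mss51 the medians were 0.17 over 119 genes in ribosomal RNA and 0.59 over 120 in total RNA.

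**Figure D5:**
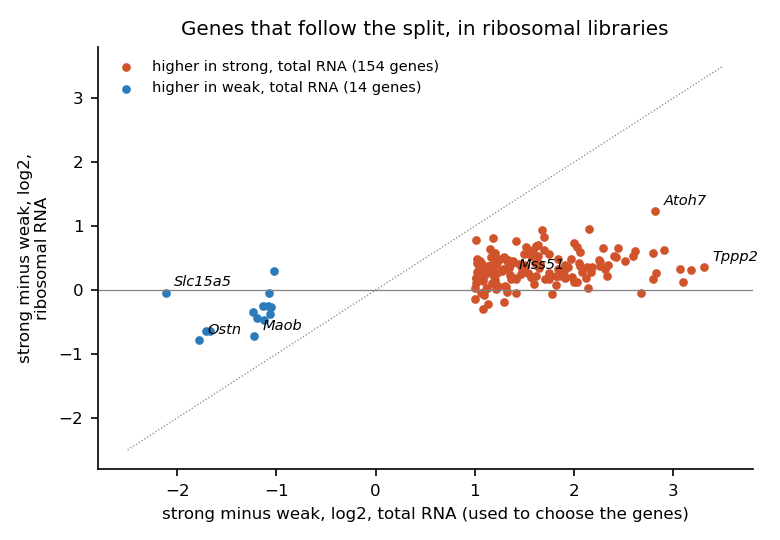
Strong-minus-weak log2 difference in total RNA (horizontal, used to choose the genes) and in ribosomal RNA (vertical) for the 154 and 14 genes that follow the split and were tested in ribosomal RNA, with the diagonal dotted. Most points lie on the same side of 0 in both but nearer to 0 in ribosomal RNA, Atoh7 the farthest from it.

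The same genes were looked up in labelled knockouts against controls in ribosomal RNA. Of 162 tested genes of the set higher in the strong class, 101 were higher and 4 lower. Of 17 of the set higher in the weak class, 13 were lower and 0 higher. Over all 9098 genes, 890 were higher and 951 lower (20.2% in either direction). The sets were chosen in total RNA of the same-numbered mice, so these counts are not independent of that choice. Dach2 was 2.19 lower (adjusted p = 2.12e-07), Maob 1.64 lower (adjusted p = 8.68e-09) and Fhl3 1.08 lower (adjusted p = 5.77e-08, all edgeR). Metrn was 1.57 higher (adjusted p = 8.25e-08), H19 1.26 higher (adjusted p = 8.68e-09) and Tppp2 2.28 higher (adjusted p = 8.00e-12, all edgeR). Snhg3 at −0.14 (adjusted p = 0.461) and Rab26os at −0.10 (adjusted p = 0.772), whose weak libraries were low in total RNA, did not pass the edgeR test in ribosomal RNA.

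Further gene lists were described between the classes in total RNA. The 8 mitochondrially encoded genes measured had a median of −0.61, with 5 non-overlapping and higher in the weak class, among them mt-Nd1 (−0.59), mt-Nd2 (−0.63), mt-Nd5 (−0.79) and mt-Co1 (−0.79), and none reached a log2 difference of 1. Of 21 fatty acid oxidation genes 4 were non-overlapping and higher in the weak class, among them Hadha (−0.40), Cpt2 (−0.41) and Acaa2 (−0.50), with a list median of −0.18. Of 18 clock genes 5 were non-overlapping and higher in the strong class, among them Per2 (0.94), Dbp (0.90) and Tef (0.20). Per2 was 1.19 and Dbp 0.86 below controls in the weak class. Of 13 genes of the denervation response, Chrne (1.29), the adult acetylcholine receptor subunit, and Sln followed toward the strong class, and Dach2 and Gadd45a (−1.03) toward the weak class. The counts without overlap stand beside 7.74% of all genes, and the counts that followed the split beside 1.77%.

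Markers of other cells were compared in the same way. The list median was −0.07 for 23 extracellular matrix genes, −0.05 for 11 macrophage genes, −0.03 for 11 endothelial genes, −0.29 for 10 tendon genes, −0.29 for 7 erythroid genes and 0.43 for 8 Schwann cell genes, and 0 genes of these lists followed the split. Without overlap were 2 of the 7 erythroid genes, higher in the weak class (28.6%), and 1 of the 8 Schwann cell genes, higher in the strong class (12.5%). Only 2 of 12 lymphocyte genes were measured, with a median of −0.55. The lymphocyte genes summed to 47.4 to 49.7 CPM in weak females, 19.5 to 32.1 in strong females and 9.93 to 20.1 in female controls, and to 55.5 to 83.0 CPM in weak males, 40.8 to 71.1 in strong males and 24.0 to 39.8 in male controls. The part of these cells in the gene differences was not tested. Extracellular matrix genes were above controls in both classes, with medians of 0.57 in the weak and 0.44 in the strong class. The 7 erythroid genes measured had medians of 1.08 above controls in the weak and 0.83 in the strong class. The member Fech differed from this, at 0.11 above controls in the weak class and 0.27 below them in the strong class. Sums of the listed erythroid genes reached 1778 to 2318 CPM in weak females and 982 to 2267 in strong females, against 849 to 1282 in female controls. The 5 kidney genes measured had a median of 1.03 for strong minus weak, with 0 of the 5 free of overlap. The 15 listed kidney genes summed to 6.45 to 62.6 CPM (median 7.22) in weak females, 5.12 to 29.7 (median 7.17) in strong females and 3.46 to 113 in female controls. In males the kidney sums were 16.7 and 95.5 CPM in the weak class, 8.43 to 1480 in the strong class and 4.31 to 128 in controls.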

How the data were processed

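Gastrocnemius RNA was sequenced from 28 mouse numbers, each with a total and a ribosomal library, per the labels. Libraries were made with Lexogen's QuantSeq 3′ kit from 500 ng of RNA and read as 50 bp forward reads, per the labels' protocols. The authors' tools, per the submitters' processing notes, were UMI-tools, STAR, HTSeq, R 4.3.0 and DESeq2 1.40.1, and the build was GRCm39. Their deposited table gives a whole read count per gene and library, for 57010 identifiers and 5 HTSeq summary lines, which stayed out of library sizes and tests. A gene name table matched 52029 identifiers (97.6% of counts). Gene types came from a GRCm38 annotation by identifier alone, and no coordinates are given. All columns matched a sample, and no pair of libraries held identical values (highest correlation 0.988).

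CPM was computed from the deposited counts over reads assigned to genes. Fits used edgeR 4.0.16 in R 4.3.3 (TMM, filterByExpr, quasi-likelihood F-test, sex as a term), with Benjamini-Hochberg adjustment over all genes tested and a threshold of 0.05. DESeq2 1.42.0 was the alternative tool. The knockout score used log2(CPM + 1), and the permutation test of Mss51 used a prior count of 2. The code was tested on simulated data.

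Weak and strong classes, the genes followed, the gene lists and the alternatives were chosen with earlier results of these data known. Total RNA differences between classes carry no p-value because Mss51 in the same libraries chose them. Ribosomal libraries were classed by the total library of the same sex and number. Named genes were Mss51, Elavl1, the 12 largest differences each way among genes that followed the split, the 12 lowest p of labelled knockouts called in each sex in ribosomal RNA, and up to 3 list members by level and 3 by difference, without predicted or clone names. Not every gene under this rule is described, and a result that it covers is not reported here. The p-values measure the spread between labelled mice. Sensitivity was tried for the Mss51 threshold, size factors, filters, the samples fitted, each sex alone, the tool and each library left out. Overlap on TMM-scaled CPM was added after seeing the data. Deeper libraries give more precise values: ribosomal libraries held 0.160 to 3.58 M counts and total libraries 2.43 to 5.85 M.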

Additional observations from a re-analysis of the deposited data

Results flagged for a closer look

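The check covered genes whose levels are given by library, measures of the total libraries, and Mss51 in ribosomal RNA. In each, the highest or lowest of 7 libraries of a sex and genotype was compared with the other 6. Of 148 such groups 15 held a library set far apart from the rest, all of them gene levels in total RNA. Chance alone would mark about 1 in 20, but the groups share libraries and are not independent. Labelled knockouts of both classes form a single group in this check.

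Male control 26 was apart in 5 genes. Its Tppp2 was 6.18 CPM where the other male controls held 3.32 to 4.47, its Tnnt1 was 295 CPM against 180 to 216, and its Myh7 was 107 CPM against 54.9 to 71.9. Its Col24a1 was 51.9 CPM against 12.5 to 17.2, and its Six2 was 2.06 CPM against 6.23 to 8.94. The same library had 23.4% of counted reads outside genes, the highest of the total libraries. Male control 27 had the lowest Chrne, at 8.62 CPM against 12 to 14.3.

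Female control 21 was apart in 3 genes, with Fhl3 at 170 CPM against 102 to 129, Fkbp5 at 112 CPM against 58.1 to 78.3 and Cdkn1a at 477 CPM against 249 to 342. Female control 17 had Tnnt1 at 458 CPM against 335 to 385. Female control 14 had Cyp4f39 at 13.6 CPM against 3.19 to 6.58.

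Among labelled knockouts, strong female 9 was apart in 3 genes. Its Tanc1 was 83.7 CPM against 38.2 to 51.1 in the other females, its Cdkn1a was 266 CPM against 44.1 to 128, and its Col24a1 was 104 CPM against 5.37 to 46.1. Weak male 12 had Ostn at 133 CPM against 31.8 to 59.3 in the other males.

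A term for sex by class in ribosomal RNA passed for 0 of 8870 genes in edgeR, with 429 at an unadjusted p under 0.05 and a smallest adjusted p of 0.367.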

How the results depend on the processing

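The count of genes that followed the split in total RNA stayed within 1.5 times of 193 under every alternative tried except a threshold of 320 CPM. That threshold moved female knockout 9 (319 CPM) to the weak class and left 42 genes. A threshold of 200 CPM gave 246 genes, females alone 244, males alone 254, RLE size factors 190 and no filter 191. Leaving out each library in turn gave 184 to 222 genes. Leaving out a library or a sex can only ease the condition of no overlap, so these counts cannot show that the result is stable.

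The count of genes called between classes in ribosomal RNA was 0, and 6 at a threshold of 200 CPM, 3 in males alone, 1 in a fit of all 28 libraries, 14 without libraries under 0.5 M counts and 96 with no filter. It ranged from 0 to 8 when each library was left out, with 8 without male knockout 2, 5 without female knockout 2, 3 without male knockout 12, 2 without male knockout 1, and 1 each without female knockout 12 and male knockout 6. The cause of these calls was not tested.

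Mss51 in ribosomal RNA differed between classes by 0.09 to 0.28 with each library left out. Labelled knockouts against controls gave 1642 to 2141 genes in ribosomal RNA and 2796 to 3720 in total RNA in the same way. No called direction of a named gene reversed in the alternatives run. No paired analysis was possible because the weak, strong and control libraries come from different mice whose numbers do not pair across groups. That limit applies only to comparisons between these groups. Total and ribosomal libraries of the same sex and mouse number do pair, per the labels. Whether the difference between them within a mouse varied with class was not tested. The class differences in total and in ribosomal RNA given above come from separate comparisons. Ribosomal libraries of labelled knockouts held 0.160 to 3.58 M counts, fewest in male knockout 2. An alternative chosen after seeing the data left Mss51 out of the genes higher in ribosomal RNA of both sexes, and 35 in place of 36 followed the split.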
